A study of Homo sapiens with 24 samples.

Results

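The genes described here encode the hormones that beta cells store in secretory granules, the granins that help build those granules, and the enzymes that cut prohormones into their active forms. There were 10 of them, chosen by name out of 20046 protein-coding genes of GENCODE release 44: INS, IAPP, CHGA, CHGB, SCG2, SCG3, SCG5, PCSK1, PCSK2 and CPE. For each gene, all H3K4me3 regions that overlapped 2 kb on either side of the start site of any of its protein-coding transcripts were listed, and the strongest of them by mean normalized count served as its main region. H3K4me3, trimethylation of histone H3 at lysine 4, is a mark of active promoters. It was profiled with 500000 EndoC-βH3 cells per sample by MINT-ChIP, in which the nucleosomes of each sample receive a barcode, so that many samples share a single immunoprecipitation. EndoC-βH3 is a single human beta cell line of fetal pancreas origin, immortalized with hTERT and SV40 Large T-antigen, and both transgenes can be removed by a CreER recombinase that the cells carry. The non-senescent group (H3K4me3, n = 4) kept the transgenes. The senescent group (H3K4me3, n = 4) was treated with 4-hydroxytamoxifen for 3 weeks, at a concentration that the labels give as 1 mM and the methods of the study in micromolar units. The cell line and its genotype (WT in the labels) were the same in both groups.

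The values used here are the authors' mean normalized counts, 1 per region and averaged over the samples of both states. No value per sample was analysed, so no spread over samples, depth per sample or difference between the states is given, and it could not be judged whether genes that follow each other in an order of levels differ by more than the replicate error. The table holds 97545 regions, and all of them lie within the chromosome lengths of hg38. The median region has a mean normalized count of 4.40 and a width of 677 bp, and the lowest mean in the table is 0.299. At the 14586 genes with a main region (72.8% of protein-coding genes), the median was 49.3 mean normalized counts, 2498 bp in width and 19.0 mean normalized counts per kb of region. Percentiles below are ranks among these 14586 genes. Of them 3380 share their main region with another gene, and the distinct main regions number 12836. A shared region thus enters medians, ranks and correlations over all genes more than once. The mean normalized count of a whole region also depends on its width, so levels are compared between genes per kb of region, and ranks by count are given beside them.

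Insulin and islet amyloid polypeptide (IAPP) are made as preprohormones and packed together into dense-core granules. The granins are acidic proteins of the same granules that aggregate in the trans-Golgi and aid granule formation and cargo sorting. The prohormone convertases PCSK1 and PCSK2 cut proinsulin and other prohormones after pairs of basic residues, carboxypeptidase E (CPE) trims the basic residues that are left, and SCG5 (7B2) is a chaperone that PCSK2 needs to become active. H3K4me3 usually flanks the start sites of active genes on the first nucleosomes of the gene, and CpG-rich promoters carry it in many tissues.

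The bases before 5 start sites are shown first, because these promoters span the range of H3K4me3 found below, from IAPP with the lowest level per kb to PCSK2 with the highest. Each run holds the 250 bases before the start site, 5′ to 3′ on the strand of the gene, from RefSeq (GRCh38.p14), with CpG dinucleotides in capitals. The intervals are chr11:2161210-2161459 on the minus strand for INS, chr12:21372652-21372901 on the plus strand for IAPP, chr14:92922900-92923149 on the plus strand for CHGA, chr5:96433249-96433498 on the minus strand for PCSK1 and chr20:17226790-17227039 on the plus strand for PCSK2.
INS: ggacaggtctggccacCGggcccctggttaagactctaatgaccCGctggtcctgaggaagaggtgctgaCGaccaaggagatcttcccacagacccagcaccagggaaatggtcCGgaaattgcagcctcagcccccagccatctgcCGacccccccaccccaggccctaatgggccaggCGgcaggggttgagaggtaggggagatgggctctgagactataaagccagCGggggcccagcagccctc
IAPP: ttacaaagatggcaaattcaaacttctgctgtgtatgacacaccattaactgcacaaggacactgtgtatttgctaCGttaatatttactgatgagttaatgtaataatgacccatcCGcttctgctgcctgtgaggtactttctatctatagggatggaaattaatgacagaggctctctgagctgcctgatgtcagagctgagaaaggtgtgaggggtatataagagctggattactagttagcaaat
CHGA: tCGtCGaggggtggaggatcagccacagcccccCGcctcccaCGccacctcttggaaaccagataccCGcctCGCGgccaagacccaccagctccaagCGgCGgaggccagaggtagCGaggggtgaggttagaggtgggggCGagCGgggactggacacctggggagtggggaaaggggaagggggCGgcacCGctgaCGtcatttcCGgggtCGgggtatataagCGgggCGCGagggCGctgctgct
PCSK1: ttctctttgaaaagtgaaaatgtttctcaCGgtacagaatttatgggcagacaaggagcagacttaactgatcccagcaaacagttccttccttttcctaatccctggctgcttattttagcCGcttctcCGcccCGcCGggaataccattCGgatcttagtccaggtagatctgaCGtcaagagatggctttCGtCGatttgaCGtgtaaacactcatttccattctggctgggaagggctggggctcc
PCSK2: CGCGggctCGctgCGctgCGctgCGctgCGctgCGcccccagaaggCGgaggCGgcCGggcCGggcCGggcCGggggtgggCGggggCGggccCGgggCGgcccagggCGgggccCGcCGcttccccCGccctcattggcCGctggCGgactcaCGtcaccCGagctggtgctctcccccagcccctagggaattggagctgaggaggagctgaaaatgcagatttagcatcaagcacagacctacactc

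IAPP had 2 CpGs in these 250 bases, INS 7, PCSK1 10, CHGA 21 and PCSK2 26. The median over 35116 promoters in the same sequence table was 11. Of the other members, SCG5 had 8, SCG3 had 16 and CPE had 20, and CHGB and SCG2 were not in that table. The full cyclic AMP response element, TGACGTCA, was found in CHGA and PCSK1 and in 1.65% of all promoters of this length. The shorter run TGACG, on either strand and including those inside a full element, was found in 6 of the 8 members in the table (INS, CHGA, SCG5, PCSK1, PCSK2 and CPE), and in 21.2% of all promoters. The exact TATA run TATAAA, searched on either strand, was found in INS alone among the 8 members, and in 10.7% of all promoters. Other forms of the TATA box were not searched, and the IAPP and CHGA sequences above both hold the similar run TATATAAG. The search thus does not show that INS alone has a TATA box. INS was also the only one of the 8 with TGCTGAC, the core of a site for MAF factors, which overlaps its TGACG run and was found in 3.43% of all promoters. The homeobox core TAAT, like the MAF core, was searched on either strand, so ATTA counts as a match. It occurred 8 times before the IAPP start and 2 times before the INS start, and once each in SCG5 and PCSK1. Of all promoters 47.4% held at least 1. These matches describe the letters of these windows only.

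All 10 genes had at least 1 region at a start site, against 72.8% of all protein-coding genes. Exactly 1 region was found at 8 of them, against 62.9% of all genes with a region, and the other 2 (IAPP and CPE) had 2. The processing enzyme PCSK2 and the granin CHGB had the highest mean normalized counts per kb, and the hormone genes INS and IAPP the lowest. The level of PCSK2 was 5.80 times that of IAPP. Of the 10 main regions 6 were above the median of all genes per kb and 4 were above the upper quartile of 26.8 per kb. By the mean normalized count of the whole region 7 were above the median and 5 above the upper quartile of 88.6. By width 8 were above the median and 5 above the upper quartile of 3573 bp. The count of a region rose with its width (Spearman's rho 0.874 across the 14586 genes, a description across genes that share these samples), so the width and the count are not separate measures.

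**Figure D1:**
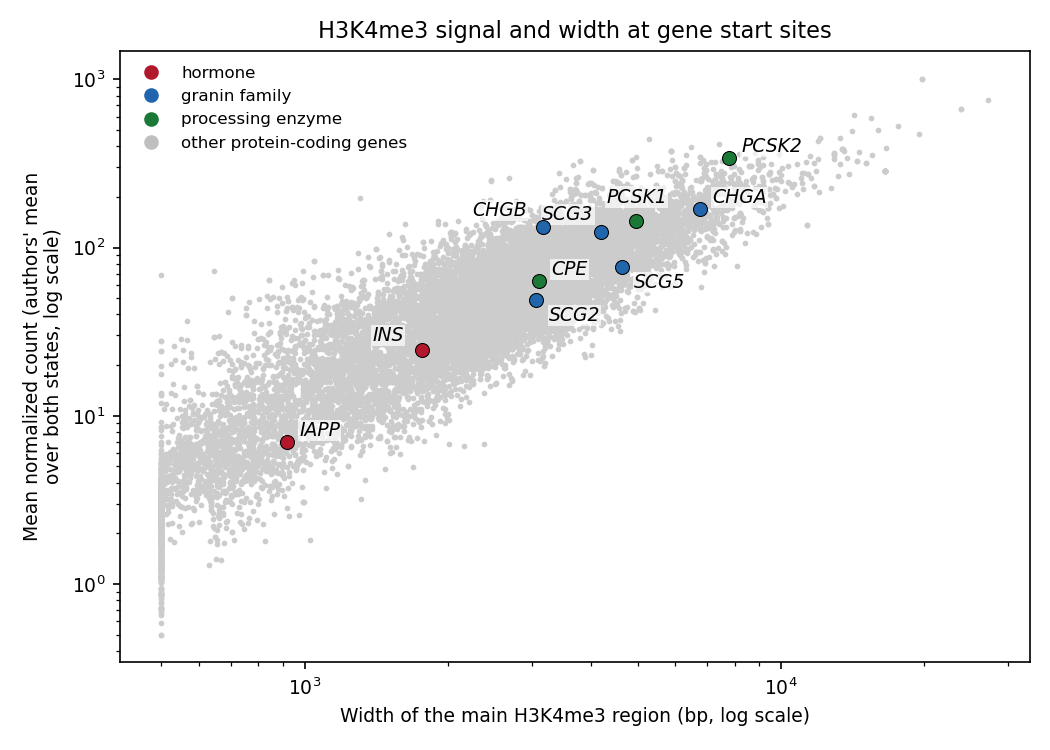
Mean normalized count of the main H3K4me3 region (y axis, log scale, authors' mean over both states) against its width in bp (x axis, log scale), with the 10 genes coloured by role and all other protein-coding genes with a region in grey. IAPP (918 bp, 6.94) and INS (1765 bp, 24.7) sit at the lower left of the 10, and PCSK2 (7774 bp, 341.1) at the upper right.

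The 2 hormone genes had narrow regions of low signal. At INS the main region lies on chromosome 11 from 2159275 to 2161040 and had a mean normalized count of 24.7, or 14.0 per kb (percentile 30.4), over 1765 bp. It does not reach the canonical INS start site at 2161209. It began 169 bp after the start in the direction of transcription and ended 1934 bp after it, covering exons 2 and 3 of 3, intronic sequence and 503 bp beyond the end of the transcript. The same region also lies within 2 kb of protein-coding start sites of IGF2 and the readthrough gene INS-IGF2, so its reads cannot be assigned to INS alone. A weaker region followed from 2928 to 4593 bp after the start, with a mean normalized count of 5.89, or 3.54 per kb. No region was listed before the INS start site up to 10 kb away. At IAPP the main region, on chromosome 12 from 21372526 to 21373444, had a mean normalized count of 6.94, or 7.56 per kb (percentile 9.13), over 918 bp. It spans the start site and touches exons 1 and 2, from 376 bp before the start to 542 bp after it. The other IAPP region, in an intron 2347 to 2847 bp after the canonical start, had a mean of 2.24, and 2 more in the rest of the gene had 3.28 and 1.00. These weaker values are below the median of all regions in the table.

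The 5 granin genes ranged from percentile 37.9 to percentile 95.7 per kb. CHGB (chromogranin B) had a region of 3160 bp (percentile 66.8 for width) on chromosome 20 from 5910453 to 5913613 with a mean normalized count of 133.3, and at 42.2 per kb it stood at percentile 95.7. It reached from 1057 bp before to 2103 bp after the start, over exon 1 and intronic sequence. CHGA (chromogranin A), on chromosome 14 from 92921536 to 92928286, had a higher count (169.2) but spread over 6750 bp (percentile 97.2 for width), so that its level was lower, at 25.1 per kb (percentile 69.98). Its main region covered exons 1 to 4 of 8. SCG3, a granin that binds CHGA and cholesterol-rich granule membrane, had a region on chromosome 15 from 51680251 to 51684431 with a count of 123.1, 29.4 per kb (percentile 81.3) and a width of 4180 bp. SCG5 had 76.8, or 16.6 per kb (percentile 40.2), over 4629 bp on chromosome 15 from 32641234 to 32645863. SCG2 (secretogranin II), on chromosome 2 from 223600017 to 223603080, had 48.8, or 15.9 per kb (percentile 37.9), over 3063 bp, and it was the only region within 10 kb of that gene. SCG2 and SCG5 were thus below the median per kb, while CHGA, CHGB and SCG3 were above it.

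All 3 processing enzymes were above the median per kb. PCSK2 had the highest count of the 10 genes. Its main region, on chromosome 20 from 17225418 to 17233192, had a mean normalized count of 341.1 over 7774 bp, which put it at percentile 99.7 by count, 98.5 by width and 96.5 by level per kb (43.9). PCSK1, on chromosome 5 from 96430106 to 96435060, had 143.3 over 4954 bp, or 28.9 per kb (percentile 80.2). At both convertases the region covered exon 1 and the start of the first intron. At CPE the start site and the strongest signal fell into different regions. The main region, on chromosome 4 from 165379728 to 165382831, had a count of 63.0, or 20.3 per kb (percentile 54.7), and lies wholly within the first intron, 720 to 3823 bp after the start. The region over the start site, from 165377610 to 165379242 and so ending 234 bp after the start, had a count of 17.1, or 10.5 per kb. The stretch between these 2 regions was not listed as a region.

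**Figure D2:**
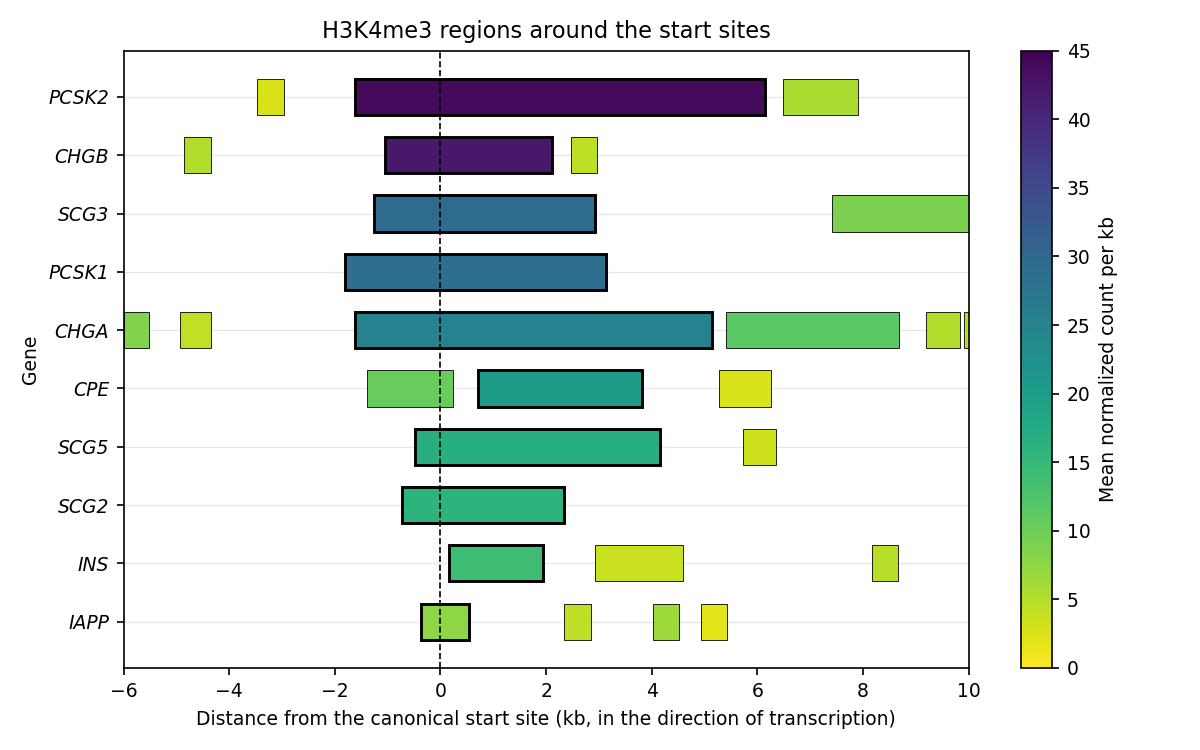
H3K4me3 regions from 6 kb before to 10 kb after the canonical start site of each gene (x axis, kb in the direction of transcription, dashed line at the start), coloured by mean normalized count per kb, with main regions outlined in bold and genes ordered by the level of the main region. All main regions lie mostly after the start site, and those of INS and CPE begin 169 and 720 bp after it.

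The regions leaned into the gene, as the median over all genes also did. In all 10 genes more of the main region lay after the canonical start site than before it, with a median of 76.3% of its width against 63.2% over all genes with a region. The share of all genes for which this holds was not computed, so the count of 10 has no reference beside it. The lowest share was 59.0% at IAPP. The shares were 63.4% at PCSK1, 66.6% at CHGB, 70.1% at SCG3, 76.1% at CHGA, 76.5% at SCG2, 79.1% at PCSK2 and 89.7% at SCG5, and the regions of INS and CPE lay wholly after the start. The main region covered the canonical start site at 8 of the 10 genes and at 66.2% of all genes with a region.

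Within the gene bodies PCSK2 stood apart by the number and strength of further regions. Its canonical transcript is 257.5 kb long and, outside the promoter window, overlapped 23 regions, 9 of them with a mean normalized count of at least 10. Among the 2750 genes with a promoter region and a transcript of at least 100 kb the median was 1 such region, and PCSK2 was at percentile 97.0, and at percentile 99.6 for the mean of the strongest body region. These ranks are not scaled to transcript length, and PCSK2 is well above the limit of 100 kb. The strongest, on chromosome 20 from 17313158 to 17319696, lies 86.1 to 92.7 kb after the start in an intron. It had a mean of 155.3, or 23.8 per kb, at percentile 99.2 of all regions in the table, and the nearest annotated transcript start of any type was 85027 bp away. Further on, 99.0 to 102.2 kb after the start, a region had 68.8, and another at 68.9 to 72.4 kb had 51.0. The 3 together hold 275.2 mean normalized counts, against 341.1 in the main region. CPE, with a transcript of 119.5 kb, had 1 body region of at least 10 (10.7), at percentile 51.2 of the long genes.

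**Figure D3:**
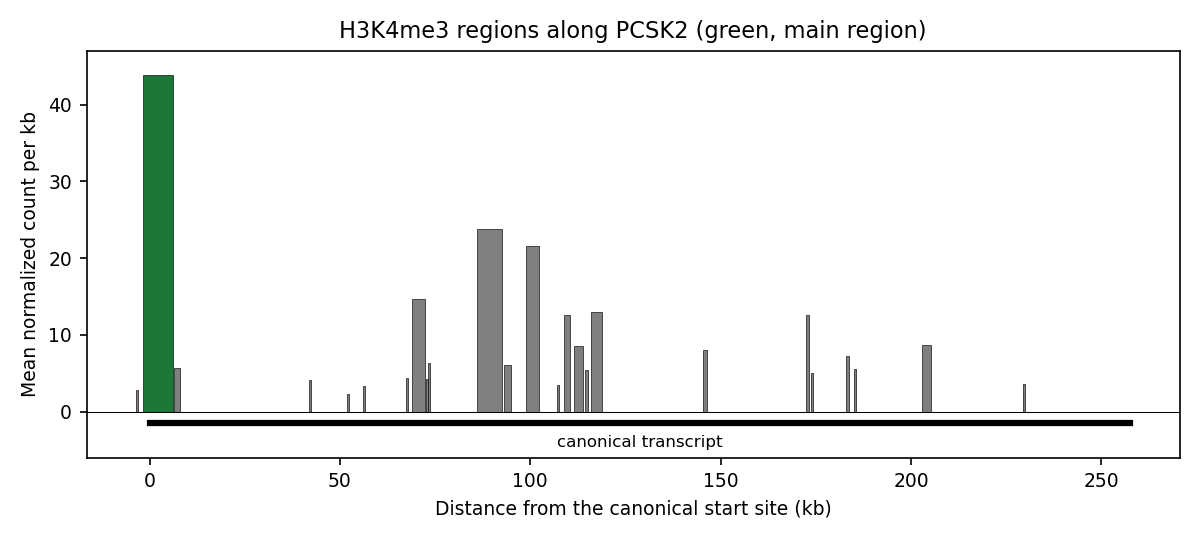
H3K4me3 regions along PCSK2 and 10 kb on either side, drawn to scale, with the distance from the canonical start site in kb on the x axis and the mean normalized count per kb on the y axis (authors' mean over both states). The main region (green) reaches 43.9 per kb, and the strongest of the intronic regions (grey) reaches 23.8 per kb between 86.1 and 92.7 kb.

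Of the granin genes, SCG5, SCG3 and CHGA also carried further regions with a mean of at least 10. At SCG5 an intronic region 33.7 to 36.7 kb after the start had a mean of 46.6, or 16.0 per kb, close to the 16.6 per kb of its main region. It overlaps the start of another SCG5 transcript that has no defined coding sequence. A weaker intronic SCG5 region, 15.6 to 16.45 kb after the start, had a mean of 11.3. SCG3 had regions of 43.1 at 7.41 to 12.2 kb and of 19.7 at 25.6 to 27.8 kb after its start. CHGA had one of 37.7 at 5.41 to 8.68 kb after its start, over exons 5 and 6 and the start of a CHGA transcript annotated as a retained intron, and one of 23.5 before its start, on chromosome 14 from 92914889 to 92917640. In all, 5 of the 10 genes had at least 1 body region with a mean of at least 10, and 75.5% of all genes with a promoter region had none. CHGB, SCG2, PCSK1, INS and IAPP had none either. The 75.5% covers genes of all transcript lengths. It is not matched to the 10 genes, whose transcripts ran from 1.43 kb at INS to 257.5 kb at PCSK2.

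Most of the 10 genes had main regions of lower GC content than the median over all genes. This describes whole regions, which lie mostly after the start site, and not the promoters alone. Before the start (250 bases) GC content was 74.4% at PCSK2, 68.8% at CHGA, 64% at INS, 61.6% at SCG3 and 60.4% at CPE. It was 56.4% at SCG5, 48% at PCSK1 and 40.4% at IAPP, against a median of 58% over all promoters of this length. The median GC content of the main regions was 43.2%, against 51.4% over all genes with a region, and 7 of the 10 lay in the lowest quartile of all genes (up to 46.5%). The main region of SCG2 had 32.1% GC, that of IAPP 34.3%, CPE 37.0%, SCG3 38.9%, CHGB 42.5%, SCG5 43.8% and PCSK1 46.2%. PCSK2 had 46.7%. CHGA at 54.3% and INS at 64.4% were above the median of all genes, INS in the highest quartile. Over all genes the level per kb fell with GC content (Spearman's rho −0.359, n = 14586 genes), while among the 10 genes rho was 0.261 (n = 10 genes). Over all genes the median was 23.2 per kb in the lowest quartile of GC content and 12.5 per kb in the highest. Regions of the same genome and samples enter each value, and the part of GC content in the low level at INS was not tested. At 14.0 per kb INS was above the median of its own quartile, while IAPP at 7.56, SCG2 at 15.9, SCG5 at 16.6 and CPE at 20.3 were below the median of theirs.

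**Figure D4:**
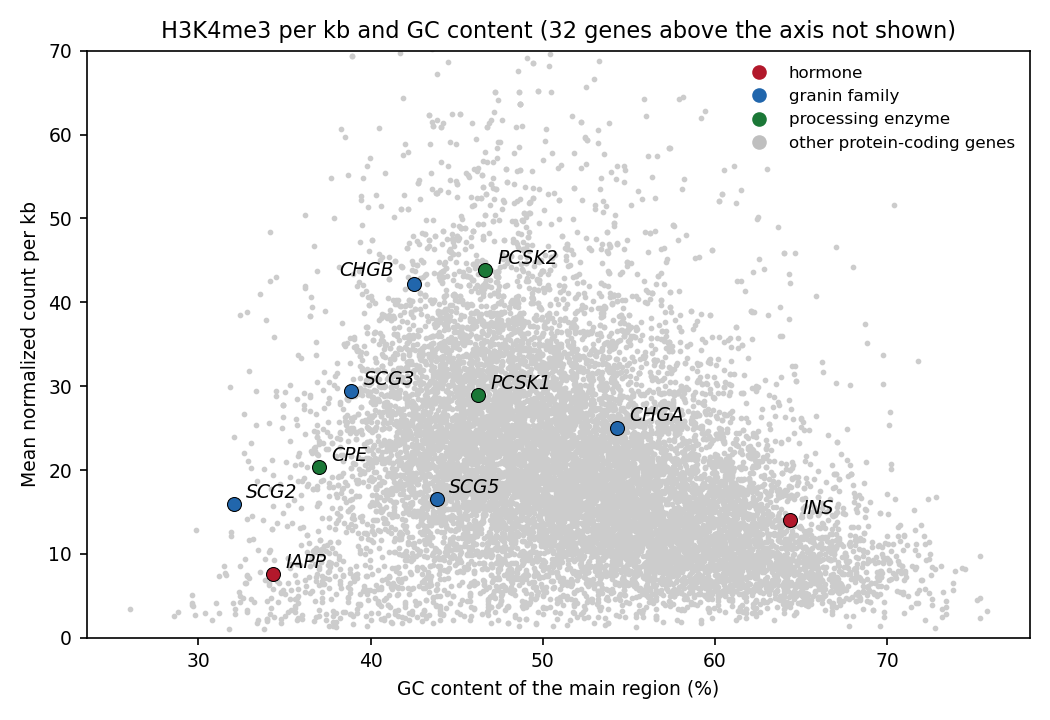
Mean normalized count per kb of the main region (y axis, up to 70, with 32 genes above that not drawn) against its GC content in percent (x axis), for the 10 genes by role and for all other genes with a region (grey). INS lies at 64.4% GC, apart from the other 9 genes at 32.1 to 54.3%.

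For comparison, lists of related genes and of markers of other cell types were read in the same way, with counts and medians only. Regions that a listed gene shares with a neighbouring gene were not marked, so a level may not belong to that gene alone. Of 14 beta cell transcription factors 12 had a region, with a median of 25.3 per kb and 11094 bp in width, against 22.7 per kb and 3670 bp for the 10 genes described here. INSM1 was highest at 51.6 and MNX1 lowest at 16.2 per kb, and MAFA and NKX6-2 had no region in the table used here. The 12 granule membrane and exocytosis genes all had a region, with a median of 12.2 per kb, from 7.46 at PTPRN to 30.3 at RAB27A. Of 7 other proprotein convertases 6 had a region, with a median of 17.0 per kb, from 8.65 at FURIN to 28.7 at MBTPS1, and PCSK6 had none. PCSK1 at 28.9 per kb and PCSK2 at 43.9 were both above all 6, PCSK1 only just. Of 8 other carboxypeptidases and peptide-modifying enzymes 5 had a region, from 14.9 at QPCTL to 23.2 at CPM, and CPB1, CPN1 and CPZ had none. The 3 other granin-like genes ran from 16.2 at PCSK1N, next to SCG2 and SCG5, to 38.4 per kb at GNAS.

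Of 10 other islet and gut hormone genes 8 had a region, against 72.8% of all protein-coding genes, and 2 were above the median of all genes per kb and 1 by count. The 8 had a median of 17.4 per kb, from 5.58 at ADCYAP1 to 25.7 at UCN3, and GAST and PPY had none. The median is above the 14.0 per kb of INS and the 7.56 of IAPP. The glucagon gene GCG (6.99 per kb) and the somatostatin gene SST (11.0 per kb), named after their values were seen, were below INS. The 7 alpha and delta cell markers all had a region, with a median of 12.2 per kb, from 6.41 at LOXL4 to 33.3 at IRX1. Of 11 exocrine pancreas markers 5 had a region, with a median of 7.09 per kb, from 2.24 at PRSS1 to 11.0 at SOX9, and AMY2A, CEL, CELA3A, CTRB1, KRT7 and PNLIP had none. Of 9 stromal, endothelial and immune markers 4 had a region, from 6.28 at COL1A1 to 31.9 at CD68, and CD3E, COL3A1, PDGFRB, PTPRC and VWF had none. The 9 broadly expressed genes all had a region, with a median of 17.1 per kb, from 7.80 at HPRT1 to 33.4 at TBP. Of 6 genes of unrelated tissues only TNP1 had a region (8.97 per kb), and AMELX, CRYAA, HBB, KRT14 and MYH2 had none.

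**Figure D5:**
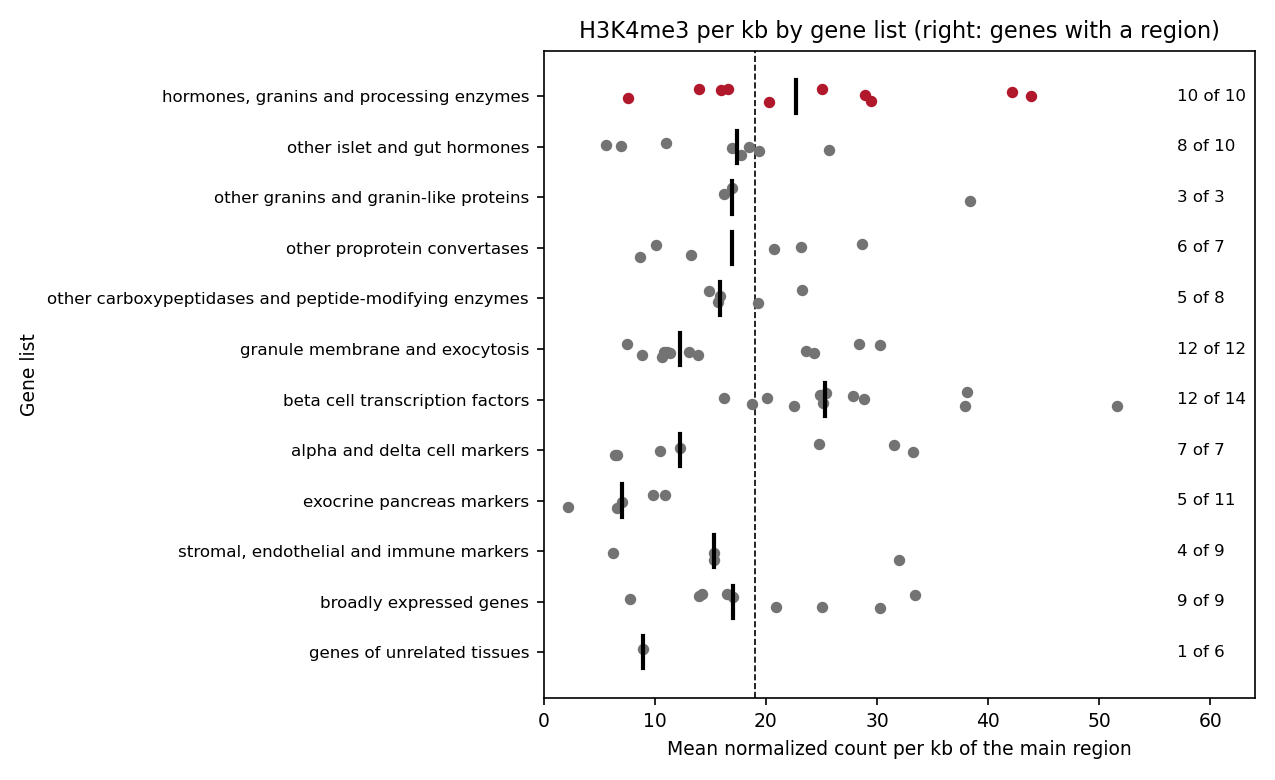
Mean normalized count per kb of the main region (x axis) for the 10 genes described here (red) and the genes of 11 other lists (grey), with 1 point per gene, a bar at each median and the median of all genes as a dashed line at 19.0. The numbers at the right give the genes with a region out of those listed, such as 10 of 10 for the genes described here and 5 of 11 for exocrine markers.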

How the data were processed

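H3K4me3 was measured in EndoC-βH3 cells, with 4 non-senescent samples and 4 that were senescent. The other 16 samples of the series (H3K27me3 and H3K9me3) were not analysed here. The authors used Bowtie2 (hg38), samtools, HOMER findPeaks for H3K4me3 peaks and DESeq2. How peaks were merged, how reads were counted and whether H3K4me3 duplicates were removed is not given in the sources used here. The deposited signal is the authors' mean over samples of DESeq2-normalized counts per region, not scaled by length. Another 5 columns of the deposited table hold the authors' own comparison of the states (log2 fold change, its standard error, a test score, p-values and adjusted p-values), and none of them was used, so no test was run. Depth per sample is unknown.

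Start sites came from GENCODE release 44 (GRCh38), and canonical start sites from its Ensembl canonical tag. The main region of a gene is the one of highest mean among those overlapping 2 kb on either side of any start site of its protein-coding transcripts. Coordinates are printed as deposited, and whether starts count from 0 or 1 is not given in the sources used here. The width is the end minus the start, and the level per kb is the mean divided by the width in kb. GC content came from the hg38 sequence, and promoter sequences from RefSeq. The 10 genes, the 11 comparison lists and the alternatives were chosen with earlier results of these data known, and the motifs and the limits of 10 mean normalized counts and 100 kb for gene bodies after the values were seen. All 10 genes are named, with those that share their regions, and of each list the genes with the highest and lowest level per kb and those without a region. Some genes of the comparison lists are not reported here and were left out of the counts and medians. Assignment was tested on simulated data. The software was matplotlib 3.10.9, scipy 1.17.1, pandas 2.3.3 and numpy 2.4.6 under Python 3.11.15.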

Additional observations from a re-analysis of the deposited data

How the results depend on the processing

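The number of the 10 genes with a region, the number above the median of all genes and their median percentile by count were recomputed under 11 other settings and 1 more chosen after seeing the data, in which regions 1 kb or less apart were joined. The number with a region was 9 instead of 10 in 2 settings, without PCSK2 when the centre of a region had to lie within 2 kb of a start site, and without IAPP when regions had to have a mean of at least 10. Between 6 and 8 genes were above the median (7 as reported). There were 8 with a 5 kb window or with genes without a region set to 0, and 6 with levels per kb or with centres in the window, and the median percentile ranged from 61.2 with levels per kb to 85.7 with regions of a mean of at least 10 (78.2 as reported). Of 108 recomputed values of single genes 106 stayed within 1.5 times the reported value or, per kb, in the same region. The other 2 were CPE at 17.1 instead of 63.0, with the region nearest the start site or with centres in the window. Many of the 108 could not move, so this count is no measure of stability. For the 8 genes with 1 region, the nearest region, the sum and the choice per kb return that same region. A floor on the mean can only keep or remove a value. The missing values of PCSK2 and IAPP are not among the 108. With no values per sample, no replicate could be left out, and the precision of each level is unknown.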

Other observations

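When regions 1 kb or less apart were joined, CHGA formed a domain of 13174 bp on chromosome 14 from 92921536 to 92934710, over most of its gene, at percentile 99.4 of all genes by joined width, and PCSK2 one of 9537 bp (percentile 98.2). The CPE region over the start site and the main region in the first intron formed a domain of 5221 bp with a summed mean normalized count of 80.1. INS was joined to the region after its 3′ end, over 4424 bp with a sum of 30.6. The domains of IAPP, SCG2, SCG3, SCG5 and PCSK1 were their main regions alone.

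Across the 10 main regions the level per kb rose with the ratio of observed to expected CpG (Spearman's rho 0.855, n = 10 genes), from 0.150 at IAPP to 0.553 at CHGB, with 0.473 at PCSK2 and 0.466 at PCSK1. CPE entered with its intronic main region, at a ratio of 0.231. The CPE region over the start site, which is not among these 10, had a ratio of 0.644 but only 10.5 per kb. Across all 14586 genes with a region rho was 0.0578. The regions come from the same samples, the relation was noticed in these values, and it is given as a description. The median ratio was 0.317 for the 10 genes and 0.590 for all genes.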
